A study of Rattus norvegicus with 44 samples.

Results

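The response of rat liver cells to the middle of 3 cadmium concentrations was examined by comparing 4 arrays of cells exposed to Cadmium 0.55 µM for 24 h with 8 Control arrays, out of 44 arrays in the series. All groups were H4-II-E-C3 cells, a rat hepatoma line that makes plasma proteins and drug-metabolising enzymes as hepatocytes do, kept in serum-free medium during the exposure. The compound was cadmium chloride, and the study set its lowest concentration of 0.2 µM at a level of no cell death, with some at 0.55 µM and more at 1.2 µM. Nickel chloride at 140 µM and sodium dichromate at 1 µM, the middle concentrations of the other metals (Nickel 140 µM and Chromium 1 µM below), were each compared with it over 4 arrays. These are unsorted cultures of 1 tumour line, so they hold none of the other cell types of a liver, and they are no model of the whole organ. The 10 conditions had 4 replicates each, and the controls had 2 arrays per replicate. The labels do not say whether these 2 are separate cultures, so their mean stood for each replicate. The p-values rest on the spread between samples of a condition that remains after differences shared by a replicate number are taken out.

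The condition of each array was chosen by the place of its title in the series. The titles were taken in series order, the 4 titles marked as repeated microarrays were moved to the end, and each was given to the value column at the same place. This order was selected on measured values, because it matches the condition averages published with the study: over 8928 averages of 992 probe sets the largest difference was 7.5e-06 on the log2 scale, whereas the labels as deposited gave differences of up to 4.32. The deposited label names another condition for 22 of the 44 arrays, for 3 of the 4 Cadmium 0.55 µM arrays and for 2 of the 8 Control arrays. With the labels as deposited, 1 of 15513 probe sets passed the test described below, so everything that follows rests on the displaced order. The 992 are the probe sets that the study called changed in at least 1 exposure, so they hold many of the largest differences. For genes with a probe set among them, values are given as a description with no test. Adjusted p-values are given for the other genes.

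Cadmium is a toxic metal that cells cannot break down. It binds thiol groups, displaces zinc from proteins and is held in the cytosol by metallothioneins, small cysteine-rich proteins whose genes are switched on by the zinc sensor MTF1 through metal response elements. Cadmium is also known to activate NRF2, the regulator of antioxidant genes, and the heat shock and unfolded protein responses, which make chaperones when proteins misfold.

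The metallothionein promoters are shown because Mt2A had the third largest difference of all genes and its promoter holds the letters of the metal response element core, TGCNCNC on either strand, several times. Each is the 250 bases before the start of the gene, from RefSeq on the GRCr8 build, written 5′ to 3′ on the strand of the gene, and capitals mark matches to the core:

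Mt2A, chr19:10838709-10838958, minus strand: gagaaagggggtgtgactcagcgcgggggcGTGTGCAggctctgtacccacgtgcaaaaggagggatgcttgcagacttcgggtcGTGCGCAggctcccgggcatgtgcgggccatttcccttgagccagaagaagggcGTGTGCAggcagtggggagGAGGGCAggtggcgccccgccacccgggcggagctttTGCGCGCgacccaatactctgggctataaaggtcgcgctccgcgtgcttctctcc

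Mt1, chr19:10832976-10833225, minus strand: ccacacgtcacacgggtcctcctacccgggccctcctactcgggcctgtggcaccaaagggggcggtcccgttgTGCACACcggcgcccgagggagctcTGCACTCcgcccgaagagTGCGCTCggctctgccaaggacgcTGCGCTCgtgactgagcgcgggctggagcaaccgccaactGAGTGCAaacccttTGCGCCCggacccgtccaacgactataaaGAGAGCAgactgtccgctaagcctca

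Slc30a1, chr13:106021769-106022018, plus strand: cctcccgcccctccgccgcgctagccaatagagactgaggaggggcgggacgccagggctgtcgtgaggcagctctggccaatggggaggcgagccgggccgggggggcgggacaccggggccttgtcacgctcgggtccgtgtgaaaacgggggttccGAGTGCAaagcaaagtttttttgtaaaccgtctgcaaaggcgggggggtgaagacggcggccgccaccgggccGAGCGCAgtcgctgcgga

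The core matched 5 times in the Mt2A promoter, 7 times in that of Mt1 and 2 times in that of Slc30a1. It had no match in the promoter of Slc39a8, the only gene of this list outside the averages that rose (below). Of 33469 promoters of 300 bases, which include 50 bases after the start, 49.6% held the core at least once and 6.30% at least 3 times. Of the 20 tested metallothionein and zinc transport genes, 17 had a promoter in the table and 12 of these held the core. A match of letters describes the sequence and is no measurement of binding.

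Before the results, 1 array needs a remark. Replicate 2 of Cadmium 0.55 µM is the repeated microarray, made anew from the total RNA. Its median R2 with the other cadmium and control arrays was 0.927, and that of the others was 0.943 to 0.973. With the arrays of its own condition it had a median R2 of 0.935, against 0.960 to 0.962 for replicates 1, 3 and 4. The 4 repeated arrays of the series came from 4 different conditions and had R2 of 0.970 to 0.986 with each other. This was over all probe sets, whereas the other R2 values here are over those that passed the filter on low values. The 2 kinds of value are therefore not compared. Replicate 2 exists only as a repeated array, so effects of repeated processing cannot be told apart from its other differences. Results are given with and without this array. Arrays of 1 group that were both from replicates 1 and 2, or both from replicates 3 and 4, had a median R2 of 0.988, against 0.965 for pairs that cross these 2 sets. All 10 hepatocyte and hepatoma markers on the array passed the filter on low values, as did 2 of 8 fibroblast markers and none of 6 macrophage or 5 endothelial ones. The median difference of the 10 hepatocyte markers between Cadmium 0.55 µM and controls was -0.01, and by replicate it was -0.16, -0.18, 0.15 and 0.30. That of the 2 fibroblast markers was -0.34, with -0.45, -0.56, -0.20 and -0.13 by replicate.

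**Figure D1:**
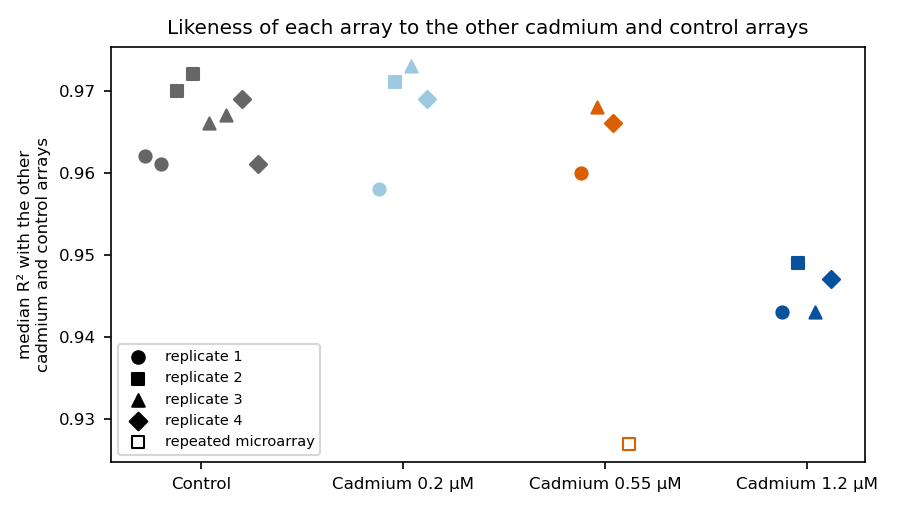
Median R2 of each array with the other cadmium and control arrays, by condition, over the probe sets that passed the filter on low values. Symbols give the replicate and the open square is the repeated microarray, at 0.927, below every other array shown.

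Across the transcriptome, the changes at 0.55 µM were mostly small, and rises outnumbered falls. With limma on the log2 values, the 3 cadmium concentrations and the controls in 1 fit and the replicate as a block, 766 of 8643 genes outside the published averages rose at an adjusted p under 0.05, or 8.86%, and 165 fell, or 1.91%. In probe sets this was 1395 of 15482, or 9.01%. None of these reached the limits of the study's methods, an adjusted p of at most 0.001 with a change of at least 1.8-fold by limma, whereas 4785 of all 16423 probe sets had an unadjusted p under 0.05. The published averages are those of probe sets that the study called at its own limits. That none of the others passed was therefore nearly fixed in advance, and nothing is read from it. At these limits 12 probe sets passed, all higher and all among the published averages. The median difference over all 9304 genes tested was 0.06. When each array was centred on its median, 505 probe sets rose and 620 fell in place of 1090 and 305, so the excess of rises did not hold under that scaling. Without the replicate block 157 of the 1395 probe sets passed. Since these are bulk samples, fewer cells that make a transcript and less of it per cell cannot be told apart.

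The 12 largest positive differences included a metal-binding protein beside surface, secreted and calcium-binding proteins. Of these genes, 11 were in the published averages, each was higher in all 4 replicates than in the controls of the same replicate, and in 8 of them every Cadmium 0.55 µM array lay above every Control array. Over all genes tested, 4.16% had no overlap in this direction. The rule ranked genes by this same difference, so nothing is read from these counts.

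Mt2A, which encodes metallothionein 2, had log2 values of 9.22, 9.71, 7.94 and 8.28 in replicates 1 to 4 at 0.55 µM, and controls ran from 7.02 to 7.50 with a median of 7.24. All 4 exposed arrays were above all controls, but replicates 1 and 2 were well above replicates 3 and 4. The difference from the controls of the same replicate was 2.10, 2.58, 0.66 and 0.90, with a mean of 1.56 or 2.95-fold, and 1.25 without the repeated array. At 0.2 µM the difference was 0.14, and at 1.2 µM it was 5.21. Mt1, the gene of metallothionein 1, had 5.09, 5.49, 4.71 and 4.70 against controls of 4.43 to 4.75. All of these are below 5.97, the level of the filter on low values, so Mt1 passed it through other arrays of the fit. Its replicates 3 and 4 overlapped the controls, and its difference was 0.42 with a standard error of 0.23. Slc30a1, which exports zinc from the cell, had 7.87, 6.94, 7.16 and 7.35 against controls of 6.18 to 6.92, with no overlap and a difference of 0.63. It differed by 2.72 at 1.2 µM. These 3 genes are in the published averages, so no test is given.

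Among the zinc genes outside the averages, 1 of 14 rose and none fell, no larger a share than the 8.86% of all genes that rose. This was Slc39a8, a zinc importer that also carries cadmium. Its values of 8.19, 7.77, 7.77 and 7.88 were above the highest control, 7.73. It rose by 0.44 ± 0.09 (SE, adjusted p = 0.008, limma), and by 0.47 without the repeated array, but it did not pass without replicate 1 or without replicate 3, where it differed by 0.34 and 0.47. Slc39a8 at 1.2 µM was not distinguished from 0.55 µM, with a further difference of 0.19 ± 0.09 (adjusted p = 0.13, limma). Mtf1 itself differed by 0.03 from controls (adjusted p = 0.74, limma).

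Surface and calcium-binding proteins were among the genes with larger differences. Emp1, an epithelial membrane protein, had 8.24, 7.93, 7.85 and 7.56 against controls of 5.80 to 7.06, a difference of 1.61, while its other probe set differed by 0.82. Ly6i, a GPI-anchored surface protein of the Ly6 family, had 7.82, 7.53, 7.62 and 7.23 against 5.45 to 6.59, also a difference of 1.61. Both were clear of the controls in every replicate and kept a difference of 1.60 without the repeated array. They parted at the other concentrations, since Ly6i already differed by 0.95 at 0.2 µM and was a further 0.19 above its 0.55 µM level at 1.2 µM, whereas Emp1 differed from controls by 0.61 and 2.96. S100a6, a calcium-binding protein, differed by 1.31 at 0.55 µM and by 3.61 at 1.2 µM. S100a11 differed by 1.10 and Lgals3, a galectin, by 1.04.

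Of the 31 tested genes of the list of S100, annexin and actin genes, 25 were higher and 6 lower than controls, with a median of 0.20 beside 0.06 for all genes. Of its 15 genes outside the averages, 4 rose and none fell, beside 8.86% of all genes that rose. These were Anxa5, an annexin, at 0.30 ± 0.07 (SE, adjusted p = 0.016), Anxa7 at 0.29 ± 0.06 (adjusted p = 0.014), the focal adhesion protein Vcl at 0.27 ± 0.05 (adjusted p = 0.010) and the actin crosslinker Flna at 0.20 ± 0.06 (adjusted p = 0.044), all by limma. From 0.55 to 1.2 µM Anxa5, Vcl and Flna rose further, by 0.48, 0.34 and 0.42, and Anxa7 differed by 0.17 (adjusted p = 0.069, limma). Without the repeated array 5 of the 15 rose, and none passed without the replicate block or without replicate 3.

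**Figure D2:**
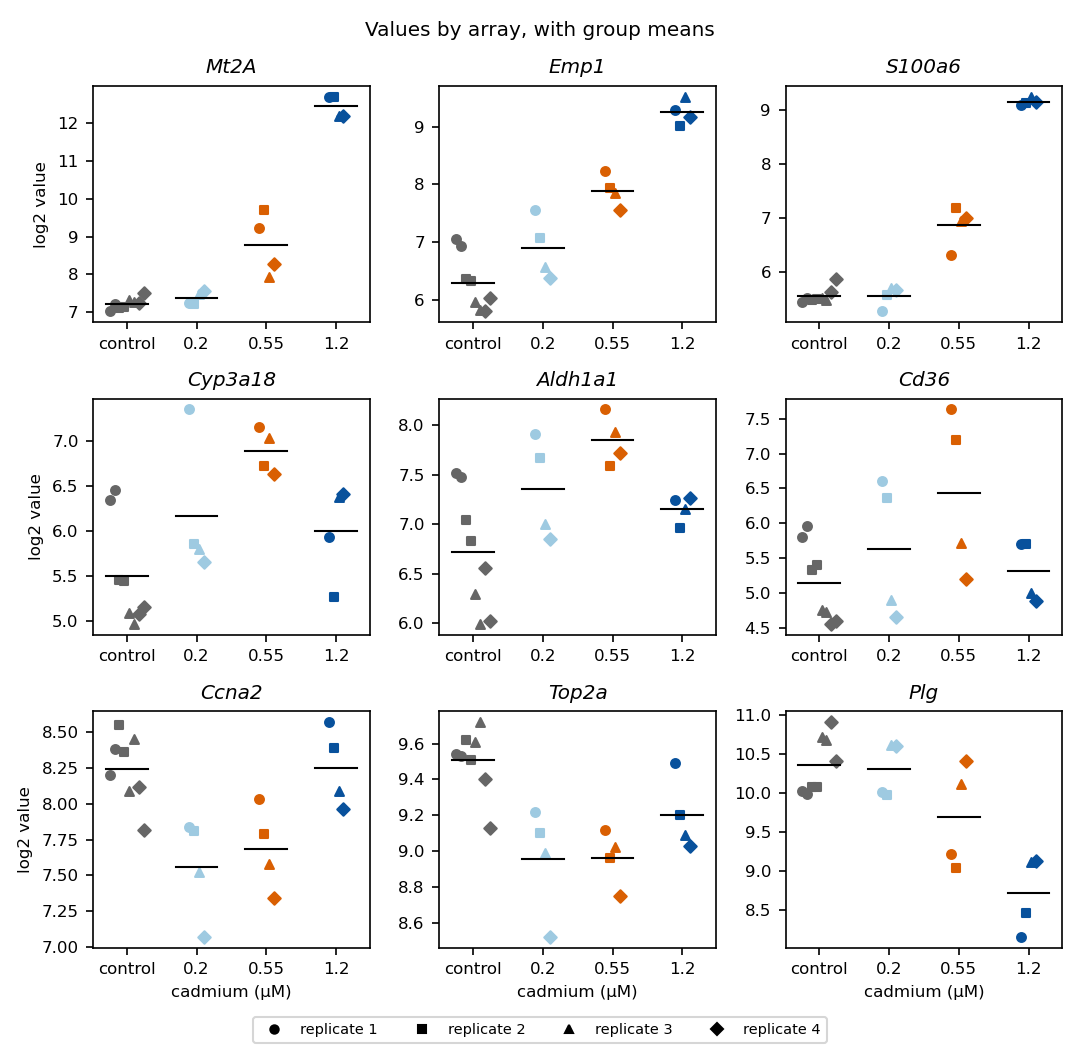
Log2 values of 9 genes in the 8 Control arrays and in 4 arrays at each cadmium concentration (horizontal axis, µM). Symbols give the replicate and lines the group mean. Mt2A, Emp1 and S100a6 were higher with each step above 0.2 µM. Cyp3a18, Aldh1a1 and Cd36, chosen for their rises at 0.55 µM, had their highest mean there. Ccna2 and Top2a were lower than controls at 0.2 and 0.55 µM.

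Several genes of lipid, retinoid, drug and purine metabolism had their highest mean at 0.55 µM and a lower one at 1.2 µM. These genes were named for their rises at 0.55 µM, so their values there were selected to be high. They were not distinguished from 0.2 µM where tested. From 0.2 to 0.55 µM the differences were 0.72 for Cyp3a18, 0.49 for Aldh1a1, 0.45 for Gda and 0.06 for Ces1c. Their adjusted p-values by limma were 0.23, 0.23, 0.086 and 0.85. Cyp3a18, a cytochrome P450 of the CYP3A family, had 7.16, 6.72, 7.03 and 6.63 at 0.55 µM against controls of 4.96 to 6.45, with no overlap. It rose by 1.39 ± 0.29 (SE, adjusted p = 0.012, limma), or 2.63-fold, and by 1.33 without the repeated array. At 1.2 µM it was lower than at 0.55 µM by a log2 difference of -0.89 ± 0.29 (adjusted p = 0.041, limma). Aldh1a1, which oxidises retinaldehyde to retinoic acid, had 8.16, 7.59, 7.93 and 7.72 against controls of 5.99 to 7.52. It rose by 1.13 ± 0.20 (adjusted p = 0.0055, limma) and was lower at 1.2 than at 0.55 µM, by -0.69 ± 0.20 (adjusted p = 0.024). Every Cadmium 0.55 µM array was above every control for both genes, and the control arrays of replicate 1 were the highest controls.

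Gda, which deaminates guanine, rose by 0.85 ± 0.11 (adjusted p = 0.0011, limma) and was lower at 1.2 µM by -0.33 ± 0.11 (adjusted p = 0.049). Ces1c, a carboxylesterase, rose by 0.74 ± 0.16 (adjusted p = 0.015, limma), with replicate differences of 0.19, 0.57, 1.13 and 1.08. It was lower at 1.2 than at 0.55 µM by -0.95 ± 0.16 (adjusted p = 0.0014), below the controls in mean. Cd36, a fatty acid and lipoprotein receptor whose gene has a probe set in the averages, had 7.63, 7.19, 5.72 and 5.20 against controls of 4.56 to 5.96. Replicates 3 and 4 overlapped the controls, whose replicates 1 and 2 were the highest, yet each replicate was above its own controls, by 1.75, 1.82, 0.97 and 0.62. Its mean difference was 1.29 at 0.55 µM and 0.18 at 1.2 µM. The differences of 0.55 µM from control and of 1.2 from 0.55 µM share the 0.55 µM arrays, so the values are set side by side. Because the genes were chosen on those arrays, the p-values of 1.2 against 0.55 µM lean towards a fall. No peak at 0.55 µM is read from them.

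Of the 16 genes of cytochrome P450 and conjugation outside the averages, 4 rose and none fell, beside 8.86% of all genes that rose. Besides Cyp3a18 these were the glutathione transferases Gstt2 at 0.49 ± 0.08 (adjusted p = 0.0040), Gstk1 at 0.41 ± 0.07 (adjusted p = 0.0040) and Gstt1 at 0.40 ± 0.06 (adjusted p = 0.0032), all by limma. The count was also 4 without the repeated array, 2 passed without the replicate block and none without replicate 3. In the averages, Cyp4b1, a P450 of the CYP4 family, differed by 0.99 and the carboxylesterase Ces2c by 0.96, both with no overlap. The median of the 29 tested genes was 0.14, and with the labels as deposited it was -0.11.

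NRF2 targets were higher at 0.55 µM in 28 of 31 cases, with a median of 0.32. Of the 17 outside the averages, 8 rose and none fell, beside 8.86% of all genes. Gsta3, a glutathione transferase, rose most, by 0.62 ± 0.11 (SE, adjusted p = 0.0059, limma), with 0.23, 0.63, 0.66 and 0.95 in replicates 1 to 4. Ephx1, an epoxide hydrolase, rose by 0.44 ± 0.08 (adjusted p = 0.0068, limma). Srxn1, which repairs oxidised peroxiredoxins, rose by 0.38 ± 0.07 (adjusted p = 0.0048, limma), as did the exporter Abcc4 by 0.38 ± 0.09 (adjusted p = 0.021). The others were the biliverdin reductase Blvrb, the carbonyl reductase Cbr1, the pentose phosphate enzyme Pgd and Keap1, the inhibitor of NRF2, which rose by 0.33, 0.32, 0.23 and 0.23.

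In the averages, Abcc2, which exports glutathione conjugates, differed most, by 1.00. The small MAF protein Maff differed by 0.62 and the cystine importer Slc7a11 by 0.52. Hmox1, which breaks down heme, had 8.60, 8.57, 9.14 and 9.21 against controls of 8.05 to 8.86. It was higher in each replicate by 0.39 to 0.56, though replicates 1 and 2 overlapped the controls of other replicates, and at 1.2 µM it differed by 2.15. Sqstm1, an autophagy receptor, differed by 0.25, and its other probe sets by -0.05 to 0.42.

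The median of the NRF2 list was 0.24 at 0.2 µM, 0.32 at 0.55 µM and 0.33 at 1.2 µM. Between 0.55 and 1.2 µM, 1 of the 17 genes rose and 4 fell, beside 11.8% and 7.82% of all genes in the 2 directions. Gsta3 was among those that fell, by -0.45 ± 0.11 (adjusted p = 0.012, limma), and Srxn1 was the one that rose. Without the repeated array 12 of 17 rose at 0.55 µM, and without the replicate block 2 did. When replicate 3 was left out none passed, and the median was 0.25.

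Mitosis genes were lower at 0.55 µM. Of 28 tested, 26 were below controls, with a median of -0.26, and of the 26 outside the averages 9 fell and none rose, beside 1.91% of all genes that fell. Ccna2, the cyclin of S phase and mitotic entry, had 8.03, 7.79, 7.58 and 7.34 against controls of 7.82 to 8.55. Only replicate 1 overlapped the controls. It fell by 0.56 on the log2 scale ± 0.08 (SE, adjusted p = 0.0017, limma). Top2a, the topoisomerase that untangles chromosomes, had 9.12, 8.96, 9.02 and 8.75, all below the lowest control of 9.13, a difference of -0.54 ± 0.08 (adjusted p = 0.0026, limma). The kinase Bub1 of the spindle checkpoint also lay below every control, at -0.44 ± 0.08 (adjusted p = 0.0057, limma).

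The other mitosis genes that fell were Kif20b, Nusap1, Cenpf, Racgap1, Prc1 and Birc5, by 0.43, 0.42, 0.37, 0.33, 0.32 and 0.32 on the log2 scale. They encode a mitotic kinesin, a spindle-binding protein, a kinetochore protein, 2 midzone proteins and survivin. By array, the median of the 28 genes against the controls of the same replicate was -0.31, 0.02, -0.38 and -0.45 in replicates 1 to 4, so the repeated array differed from the rest. Without it 18 of 26 genes fell and the median was -0.36. Its part in the lower number of calls over all 4 arrays was not tested. Without the replicate block none of the 26 passed, and without replicate 3 only 1 did.

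Cell cycle genes that are not on this list were among the 10 largest called falls outside the averages. Mki67, the proliferation antigen Ki-67, fell by 0.55 on the log2 scale ± 0.09 (adjusted p = 0.0047, limma). Fam83d, a spindle protein, had the largest of them, at -0.63 ± 0.08 (adjusted p = 0.0011, limma), with every Cadmium 0.55 µM array below every control. Over all genes tested 0.989% lay below every control in this way. Cdkn2c, an inhibitor of cyclin-dependent kinases, fell by 0.55 ± 0.07 (adjusted p = 0.0011, limma), while its other probe set differed by 0.22, so this gene is uncertain.

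**Figure D3:**
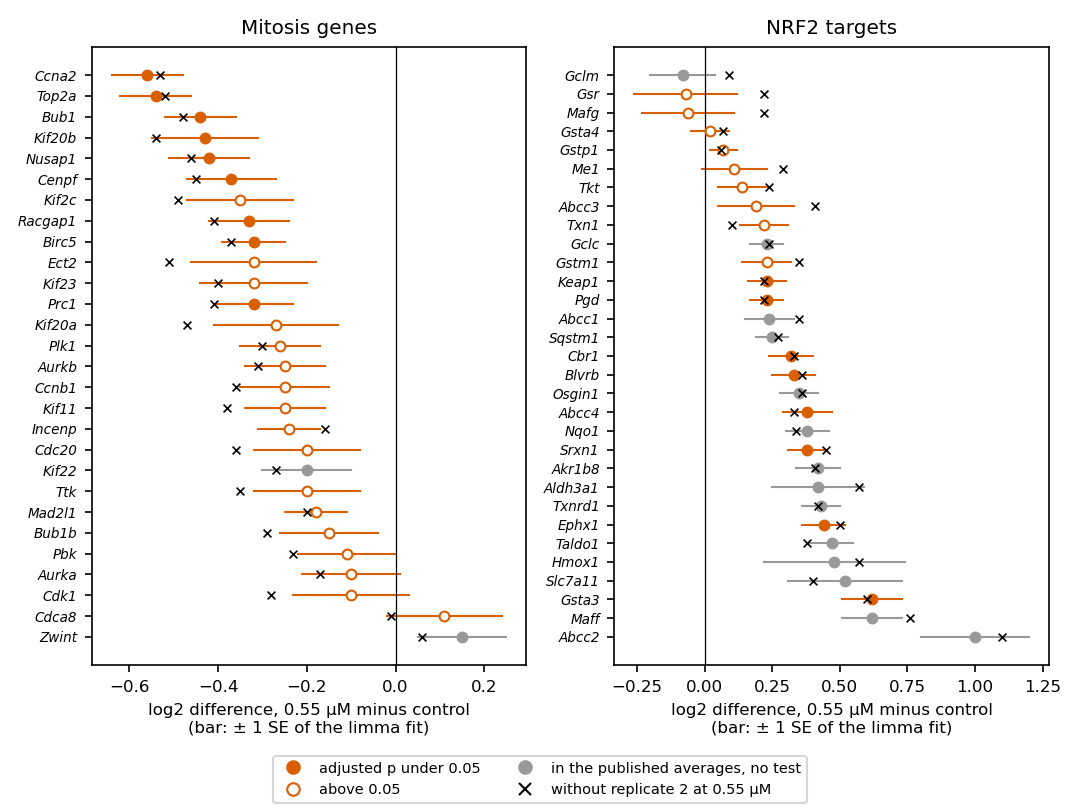
Log2 difference between Cadmium 0.55 µM and controls for each tested mitosis gene (left) and NRF2 target (right), with bars of 1 SE. Filled orange points passed an adjusted p under 0.05 (9 falls and 8 rises), open ones did not, grey ones were in the published averages and have no test, and crosses are values without the repeated array.

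The median of the mitosis genes was -0.42 at 0.2 µM, -0.26 at 0.55 µM and -0.12 at 1.2 µM. Without the repeated array it was -0.36 at 0.55 µM. In replicates 1 to 4 it was -0.22, -0.30, -0.55 and -0.64 at 0.2 µM, and -0.31, 0.02, -0.38 and -0.45 at 0.55 µM. Replicate 1 was thus lower at 0.55 µM and the other replicates were lower at 0.2 µM. This was not tested, so no order of the lower 2 concentrations is read from it. Top2a and Bub1 differed by 0.00 and 0.02 between these, whereas the centromere gene Cenpk, given below, was higher at 0.55 than at 0.2 µM by 0.57. From 0.55 to 1.2 µM 3 of the 26 genes rose and none fell, a share near the 11.8% of all genes that rose. Ccna2 was one of these, with a rise of 0.57 ± 0.08 (adjusted p = 0.00039, limma) that brought it to a difference of 0.01 from controls. Bub1 stayed at -0.52 from controls at 1.2 µM and was not distinguished from 0.55 µM, with a difference of -0.08 ± 0.08 (adjusted p = 0.50, limma). Of the DNA replication genes outside the averages, 3 of 18 fell and 1 rose at 0.55 µM, beside 1.91% and 8.86% of all genes. The falls were Dut, which removes dUTP, at -0.34 ± 0.06 (adjusted p = 0.0067), the clamp loader subunit Rfc5 at -0.27 ± 0.06 (adjusted p = 0.012) and Rpa3 at -0.26 ± 0.06 (adjusted p = 0.016), and Orc3 rose by 0.30 ± 0.06 (adjusted p = 0.012), by limma. None of the 18 passed without the replicate block or without replicate 3. The median of all 40 replication genes was -0.25, -0.07 and 0.16 at the 3 concentrations. At 0.55 µM it was -0.19 without the repeated array, on which it was 0.10. In the averages, the replicative helicase subunits Mcm5 and Mcm6 differed by -0.37 and -0.33 and the polymerase Pole by -0.36.

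A few chaperone genes were higher at 0.55 µM, and many more rose from 0.55 to 1.2 µM. In the averages Hspa1a, the inducible HSP70, had 6.87, 7.49, 6.72 and 6.29 against controls with a median of 5.79. All 4 arrays were above the highest control, with a difference of 1.03, beside 0.03 at 0.2 µM and 4.78 at 1.2 µM. Zfand2a differed by 0.66, and the small heat shock proteins Cryab and Hspb8 differed by 0.61 and 0.52. Dnajb1, a partner of HSP70, differed by 0.04 at 0.55 µM and by 0.91 at 1.2 µM. Outside the averages only 1 of 21 heat shock genes rose at 0.55 µM, beside 8.86% of all genes, the chaperonin subunit Cct4 at 0.25 ± 0.07 (adjusted p = 0.029, limma). From 0.55 to 1.2 µM 12 of the 21 rose, beside 11.8% of all genes.

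Genes of the endoplasmic reticulum showed few calls at 0.55 µM. The median of 32 was 0.01. Beside 8.86% of all genes that rose and 1.91% that fell, none of the 28 outside the averages rose and 1 fell. This was Calr, a calcium-binding chaperone, with 11.49, 11.31, 11.57 and 11.67 against controls of 11.75 to 11.90. It fell by 0.31 ± 0.06 on the log2 scale (adjusted p = 0.010, limma) and was higher at 1.2 than at 0.55 µM by 0.40 ± 0.06 (adjusted p = 0.00073). From 0.55 to 1.2 µM 16 of the 28 rose, beside 11.8% of all genes. Dnajc3, an inhibitor of the kinase PERK, was in the averages and differed by 0.49.

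Of 10 genes of the ATF4 and CHOP stress response in the averages, 8 were above controls and 2 below, the lowest at -0.29. Atf3 had 6.99, 7.26, 6.48 and 6.35 against controls of 5.10 to 6.20, with no overlap and a difference of 1.18. Ddit3, which encodes CHOP, differed by 0.81, the pseudokinase Trib3 by 0.70 and the phosphatase subunit Ppp1r15a by 0.40. Gdf15, a stress-induced secreted cytokine, differed by 1.37, with 0.82, 1.34, 2.05 and 1.25 by replicate. All 5 are in the averages. Of 19 genes of this list outside them, Cebpg rose by 0.29 (adjusted p = 0.045, limma) and Chac1, which degrades glutathione, fell by 0.58 ± 0.16 on the log2 scale (adjusted p = 0.034, limma). Over all genes 8.86% rose and 1.91% fell. Chac1 had an adjusted p of 0.071 by limma without the repeated array.

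Genes of the p53 list had a median of 0.26, with 18 of 21 above controls. Gadd45a, a growth arrest gene, had a difference of 0.95 and no overlap with controls, Gadd45g differed by 0.62 and Ninj1, a membrane protein, by 0.52. Outside the averages 1 of 11 rose, the polo-like kinase Plk2 at 0.41 (adjusted p = 0.010, limma), and 4 did without the repeated array and none without replicate 3. The share of 1 in 11 is near the 8.86% of all genes. Klf5, a transcription factor of the immediate early list, had 7.25, 7.17, 7.01 and 7.06 against controls of 5.70 to 6.28, with no overlap and differences of 0.95 to 1.38 in the 4 replicates. Casp4, an inflammatory caspase, differed by 1.03, and none of 23 apoptosis regulators outside the averages passed in either direction by limma, with 7 at an unadjusted p under 0.05. That share is near the one over all probe sets, 4785 of 16423.

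Liver secretory genes did not move one way. Beside 8.86% of all genes that rose, 2 of the 17 secreted plasma proteins outside the averages rose and none fell. Both carry lipid: Apoc2 rose by 0.67 (adjusted p = 0.0014, limma) and Apoc3 by 0.39 (adjusted p = 0.010, limma). Apoa1, the main protein of HDL, had 6.46, 7.18 and 7.18 in replicates 2 to 4 against controls of 5.08 to 5.71. Replicate 1 lay within the range of the controls, and the mean difference was 1.21. Several of the 12 largest negative differences were other liver products in the averages. Mug1, a protease inhibitor, had 5.44, 5.02, 6.76 and 6.86 against 6.56 to 7.26, and its differences of -1.31, -1.57, -0.28 and -0.12 set replicates 1 and 2 apart from 3 and 4. C9, of the membrane attack complex, differed by -0.75 and Plg, plasminogen, by -0.67. Itih4 differed by -0.57 and Lcn2, an iron-siderophore binder, by 0.78. From 0.55 to 1.2 µM 11 of the 17 fell, beside 7.82% of all genes.

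Of the 12 largest negative differences, 3 rested largely on the repeated array. Pfkl, the liver phosphofructokinase, differed by -0.28, -2.09, -0.33 and -0.08 in replicates 1 to 4, Igfbp4 by -0.11, -1.79, -0.51 and -0.02, and the transcription factor Atf5 by 0.02, -1.74, -1.07 and 0.01. Their mean differences of -0.69, -0.61 and -0.70 did not pass, and they were -0.18, -0.16 and -0.30 without that array. Slc25a23, a mitochondrial carrier, was -0.73 with it and -0.44 without, and lay below every control, and its 2 other probe sets differed by -0.38 and -0.12. Ackr4, a chemokine scavenger, was -0.58 and Ankrd37, a target of hypoxia signalling, -0.58, or -0.50 and -0.56 without it.

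Further genes among the 10 largest called rises outside the averages were Nhej1, of DNA end joining, at 0.93 ± 0.14 (adjusted p = 0.0020), Gpnmb, a membrane glycoprotein, at 0.84 ± 0.15 (adjusted p = 0.0057), and the phospholipase Pla2g1b at 0.83 ± 0.19 (adjusted p = 0.017), by limma. The phosphate and urate transporter Slc17a1, Ccdc71l and the adaptor Traf3ip2 rose by 0.76, 0.76 and 0.69. Without the repeated array Pla2g1b and Ccdc71l differed by 0.57 each, and Traf3ip2 by 0.54 (adjusted p = 0.05, limma). The largest called falls also held Irf2bp1, a corepressor, at -0.55, which was -0.34 without the repeated array, and Adhfe1, a mitochondrial dehydrogenase, at -0.54. The RNA helicase Dhx9 and the retinoid transporter Abca4 fell by 0.52 each on the log2 scale. All Abca4 values at 0.55 µM, 5.19 to 5.45, were below the filter level of 5.97. Without the repeated array Dhx9 differed by -0.38 and did not pass (adjusted p = 0.069, limma), and Abca4 differed by -0.54. In the averages, Ampd3, which deaminates AMP, differed by 1.44, the anion transporter Slc17a3 by 1.24 and the galectin Lgals4 by 1.24.

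The remaining lists held few calls, to be read beside the 8.86% of all genes that rose. Of 14 interferon response genes outside the averages 3 rose: Bst2, a tethering factor, at 0.57 ± 0.14 (adjusted p = 0.025), the peptide transporter Tap1 at 0.34 ± 0.08 (adjusted p = 0.015) and Rtp4 at 0.32 (adjusted p = 0.036), by limma. None of the 14 passed without the replicate block, without replicate 1 or without replicate 3. The proteasome had 37 of 39 genes higher, with a median of 0.13, but only Psmd9 of 38 passed, at 0.30 ± 0.06 (adjusted p = 0.013, limma), with its other probe set at 0.01, and by array the median was 0.05, 0.30, 0.13 and 0.02. Of 22 fatty acid genes Hadhb rose by 0.35 (adjusted p = 0.035, limma) and none fell, and Fabp1, in the averages, differed by -0.45 with 0.23 in replicate 4. Of 13 complement and coagulation genes F12 rose, of 18 hepatocyte transcription factors Nr1h3 rose, and none fell in either list. By limma none passed among 19 cholesterol, 19 amino acid and glucose, 15 immediate early and 9 HIF target genes, with 2, 5, 1 and 1 at an unadjusted p under 0.05. Over all probe sets 4785 of 16423 were under it. In the averages the glucose transporter Slc2a2 differed by 0.71, the aromatic amino acid decarboxylase Ddc by -0.45, the peroxisomal oxidase Hao1 by -0.13, and the plasminogen activator Plat by 0.62.

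**Figure D4:**
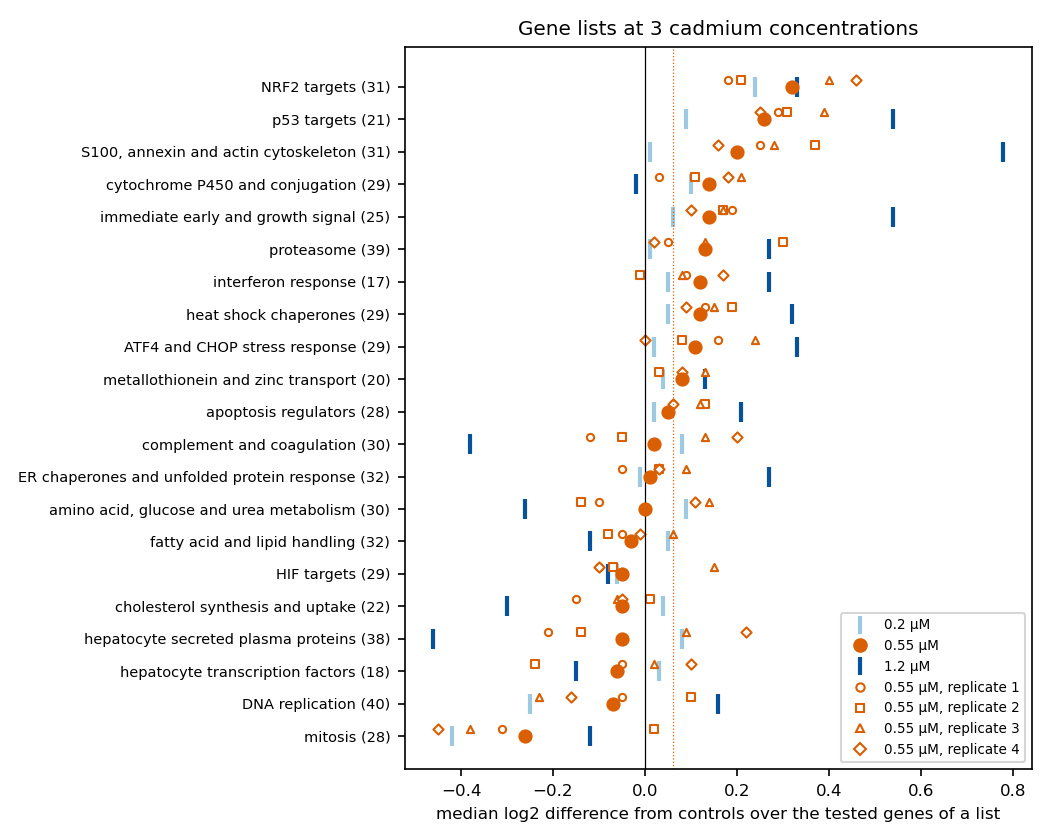
Median log2 difference from controls over the tested genes of each list (number in brackets) at 0.2 µM, 0.55 µM and 1.2 µM, with open symbols for the 4 arrays at 0.55 µM against the controls of their own replicate. The dotted line is the median of all genes at 0.55 µM, 0.06. NRF2 targets lie at 0.24, 0.32 and 0.33 and mitosis genes at -0.42, -0.26 and -0.12.

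Few probe sets passed in the direct comparison of 0.55 and 0.2 µM. Outside the averages 31 of 15482 probe sets passed, or 0.200%, with 25 higher and 6 lower at 0.55 µM, and the number fell to 4 without the replicate block. Of all 16423 probe sets, 2903 had an unadjusted p under 0.05. In the averages, larger differences between 0.55 and 0.2 µM were 1.42 for Mt2A, 1.32 for S100a6, 1.31 for Lgals4, 1.10 for Gdf15 and 1.01 for Hspa1a. Of the genes the 31 probe sets stand for, 19 were higher and 1 lower. Some are named here after their values were seen. Cenpk, a centromere protein, was higher by 0.57 ± 0.11 (adjusted p = 0.036, limma). Its differences from controls were -0.50 at 0.2 µM and 0.07 at 0.55 µM. Ribc1, a cilium protein, was higher by 0.61 ± 0.10 (adjusted p = 0.022, limma), Bambi, a decoy receptor for TGF-beta signals, by 0.31 ± 0.05 (adjusted p = 0.022, limma), and Vcl by 0.29 ± 0.05 (adjusted p = 0.036, limma). Tgfb2, a ligand of that pathway, was the one that was lower, by -0.30 ± 0.06 (adjusted p = 0.047, limma).

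Against the middle concentrations of the other metals, the mitosis genes were lower in Cadmium 0.55 µM than in Chromium 1 µM. In a fit over all 10 conditions, 20 of the 26 mitosis genes outside the averages were lower in cadmium and none higher, while 1.69% of all genes were lower and 4.95% higher. Top2a was lower by a log2 difference of -0.70 ± 0.10 (adjusted p = 4.8e-05, limma) and Ccna2 by -0.60 (adjusted p = 0.0072, limma). Of the 18 replication genes 5 were lower and 1 higher. By array against the controls, the mitosis median in Chromium 1 µM was 0.19, 0.13, 0.31 and 0.12, above 0 in all 4 replicates. Of the 17 NRF2 targets 2 were higher in cadmium than in chromium and none lower. By array against the controls, the median of the whole NRF2 list was also above 0 in Chromium 1 µM, at 0.11, 0.20, 0.25 and 0.29. In Cadmium 0.55 µM it was 0.18, 0.21, 0.40 and 0.46.

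Against Nickel 140 µM, 6 of the 26 mitosis genes were lower in cadmium and none higher, beside 2.88% of all genes that were lower and 7.65% higher. Replicate 4 of Nickel 140 µM is also a repeated microarray, so both groups hold one. Among the 17 NRF2 targets 1 was higher in cadmium than in nickel and none lower. The median of the whole NRF2 list in Nickel 140 µM was 0.15, 0.25, 0.15 and 0.31 by array against the controls. Of 28 genes of the endoplasmic reticulum list 7 were lower in cadmium, and of 9 HIF targets, which nickel is known to induce, 5 were. Cyp3a18 and Aldh1a1 were each higher in cadmium than in nickel by 1.67, with adjusted p-values of 0.00019 and 3.2e-06 by limma. Both were also higher than in Chromium 1 µM, by 1.46 and 0.81 (adjusted p = 0.0020 and 0.023, limma).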

How the data were processed

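RNA of H4-II-E-C3 cells was labelled in 2 cycles by the study and hybridised to Affymetrix rat genome arrays of 31099 probe sets. Per the methods, the authors background-corrected, normalised and summarised the arrays by RMA in Partek, and the deposited values are log2 intensities. Some columns carry the label of another condition, and conditions were set by the displaced title order given in the report. Members, gene lists and tests were chosen with earlier results of these data known. Of the probe sets, 20826 name 1 gene, 436 several and 9780 none in GEO's platform annotation, with symbols updated through RefSeq, and 57 array controls were left out. Gene values are those of the probe set with the highest mean.

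Here, the 2 Control arrays of a replicate were averaged, and probe sets with at least 4 arrays of the fit above the median of all deposited values, 5.97, were tested (16423, of which 941 in the published averages; no probe set was above it in Cadmium 0.55 µM arrays alone). The methods' detection calls were not used here. Limma 3.58.1 in R 4.3.3 (lmFit and eBayes) was fitted with concentration and replicate as terms, with 9 residual degrees of freedom, and p-values were adjusted by the Benjamini-Hochberg method over all probe sets tested. A call is an adjusted p under 0.05. The methods fit dose and batch, where batch covers experimental and processing dates. No source here ties batch to the replicate number, which was used as the block in its place. As a check, deviations from the group means of same-numbered Control and Cadmium 0.55 µM arrays correlated by 0.64, 0.23, 0.62 and 0.47, and those of Cadmium 0.55 µM and 1.2 µM arrays by 0.43, -0.18, 0.45 and 0.41, with the negative value at the repeated array. Named genes were the 12 largest rises and falls, the 10 largest called rises and falls outside the averages, up to 4 members of each list and genes the study names for cadmium, and most of them are given. Other listed genes are given where they were called. Genes named for a large difference or a call at 0.55 µM were chosen on those arrays. Other contrasts of 0.55 µM use the same arrays, so their p-values for these genes favour a difference. The number of arrays limits the precision. The fit was tested on simulated data. Alternatives were no block, other filters, a variance trend, centred arrays, each replicate or the repeated array left out, the deposited labels, 8 separate Control arrays, other sets of samples in the fit, and the methods' ANOVA and limits.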

Additional observations from a re-analysis of the deposited data

Results flagged for a closer look

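The repeated microarray, replicate 2 of Cadmium 0.55 µM, lay apart from the other 3 arrays of its condition in median R2, with a gap of 0.926 of the range. Among the 85 genes described, 5 had 1 replicate apart from the others in its difference from controls, where chance gives about 1 in 20. The gap over the range was 0.942 for Trib3, whose difference was lowest in replicate 4 at 0.22, and 0.884 for Itih4, which was at 0.31 in replicate 4. It was 0.876 for Pfkl, with -2.09 in replicate 2. It was 0.859 for Ccna2 and 0.860 for Mki67, both of which differed least in replicate 1, by -0.26 and -0.40.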

How the results depend on the processing

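Counts here are probe sets outside the published averages at an adjusted p under 0.05. Without the replicate block, 157 of 1395 passed against controls, 1324 of 3285 for 1.2 against 0.55 µM, 4 of 31 for 0.55 against 0.2 µM, 420 of 1379 against Nickel 140 µM and 137 of 870 against Chromium 1 µM. All 157 were among the 1395. With the labels as deposited the 5 counts were 1, 0, 0, 0 and 0. Leaving out 1 replicate at a time gave 47 to 865 against controls, 1264 to 4329, 0 to 34, 524 to 1748 and 113 to 587, and the lowest came without replicate 3 against controls, 1.2 µM and Chromium 1 µM, without replicate 1 or 3 against 0.2 µM and without replicate 1 against Nickel 140 µM. Against controls, 0.55 µM and control arrays alone gave 62, 8 separate Control arrays 3426, the methods' limits 0 in limma and the methods' ANOVA with its fold limit 0, where 4785 of all probe sets had an unadjusted p under 0.05 in limma. Both counts at the methods' limits leave out the probe sets that the study called at such limits, so they were nearly fixed in advance. For 0.55 against 0.2 µM, no filter gave 14, a filter on the lowest array of a condition 47, a variance trend 55, 8 separate Control arrays 98 and the loss of the repeated array 48. Without the repeated array 4404 passed for 1.2 against 0.55 µM, 741 against Chromium 1 µM and 1453 against controls, and 999 of the 1395 were among them. Centring each array gave 281 higher and 441 lower against Chromium 1 µM in place of 607 and 263, and 705 and 667 against Nickel 140 µM in place of 912 and 467. For the named genes, the sign changed for Atf5 (0.02 in replicate 1 alone) and Ankrd37 (0.03 with the deposited labels). It also changed for Hao1, from -0.13 to 0.05 without replicate 1, 0.07 without replicate 2 and 0.02 without the repeated array, and leaving out 1 replicate at a time gave -0.33 to 0.07. For Dnajb1 it changed from 0.04 to -0.02 with centred arrays and -0.04 without replicate 2, and leaving out 1 replicate gave -0.04 to 0.11. Of the 30 named genes called, 27 passed without the repeated array, 6 without the block and 0 with the deposited labels. The cause of these changes was not tested.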
